A study of Mus musculus with 21 samples.

Results

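The Tox family comprises 4 mouse genes, *Tox*, *Tox2*, *Tox3* and *Tox4*, and was measured here with every probe set annotated to them, 8 of the 45101 probe sets on each array. They are 4 of the 18193 genes that a probe set names alone. *Tox* had 3 probe sets, *Tox2* had 2, *Tox3* had 1 and *Tox4* had 2. The 4 genes were selected on the level of *Tox3*, which was lower in bitransgenic than in monotransgenic arrays of these data, so its differences from monotransgenic arrays are given as descriptions without a test, and the values of the other 3 genes and the comparison of *Tox3* between both bitransgenic groups are tested. Of the 8 probe sets, 5 passed the filter on low values (mean log2 of at least 4.90 over all arrays), and they covered all 4 genes.

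The samples were total RNA from the dentate gyrus, the granule cell field of the mouse hippocampus, on 21 Affymetrix arrays in 7 groups of 3. The study placed the Nogo receptor gene *Rtn4r* (NgR) under a tetracycline-responsive promoter (pTRE), which drives it only where the tTA activator is also carried and doxycycline is absent. Set 1 held pTRE/NgR bitransgenic mice from which doxycycline was removed to induce NgR, bitransgenic mice kept on a doxycycline diet that holds the transgene off, and monotransgenic mice, which lack tTA and from which doxycycline was also removed. Experiment 2 held bitransgenic mice that drank water and never met doxycycline, and monotransgenic mice given water. Set 3 held bitransgenic and monotransgenic mice with no stated treatment. The labels name neither the promoter that drives tTA nor the animals' age, strain background or number, so each p-value reflects only how far these samples spread, which may be technical.

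TOX proteins are nuclear factors that bind DNA through a single HMG box, a fold that recognises DNA shape and bends it. The founding member, *Tox*, is best known from T cells, where calcineurin and NFAT signalling switches it on during selection in the thymus and in exhausted T cells. *Tox3* is a neuronal member that, in rat neurons, takes part in calcium-dependent transcription together with CREB and its coactivator CBP. *Tox4* is a widely expressed subunit of the PTW/PP1 phosphatase complex, and *Tox2* is a close relative of *Tox* studied mostly in lymphocytes. In whole tissue, fewer cells of a type and less RNA per cell cannot be told apart.

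In GRCm38.p6 coordinates from RefSeq, *Tox* lies at chr4:6686353-6991557, *Tox2* at chr2:163203058-163324172, *Tox3* at chr8:90247110-90349029 and *Tox4* at chr14:52279146-52295509. The promoter windows of *Tox3*, the member whose level varied most between groups, and of *Tox4*, the member whose level varied least, are shown as RefSeq gives them, 250 bases before to 50 bases after the transcription start, read 5′ to 3′ on the gene's strand. The *Tox3* window lies wholly within the gene span above, so its transcription start is not the outer end of that span. Capitals mark the GC box (GGGCGG, on either strand, with 2 overlapping copies counted separately), the element bound by SP1-type factors.
Tox3, chr8:90348203-90348502, minus strand: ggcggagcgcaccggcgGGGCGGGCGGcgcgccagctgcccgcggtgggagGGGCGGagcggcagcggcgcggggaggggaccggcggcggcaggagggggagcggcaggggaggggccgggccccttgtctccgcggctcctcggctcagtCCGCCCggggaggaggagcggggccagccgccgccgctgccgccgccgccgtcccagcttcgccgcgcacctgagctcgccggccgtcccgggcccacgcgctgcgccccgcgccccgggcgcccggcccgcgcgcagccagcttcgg
Tox4, chr14:52278896-52279195, plus strand: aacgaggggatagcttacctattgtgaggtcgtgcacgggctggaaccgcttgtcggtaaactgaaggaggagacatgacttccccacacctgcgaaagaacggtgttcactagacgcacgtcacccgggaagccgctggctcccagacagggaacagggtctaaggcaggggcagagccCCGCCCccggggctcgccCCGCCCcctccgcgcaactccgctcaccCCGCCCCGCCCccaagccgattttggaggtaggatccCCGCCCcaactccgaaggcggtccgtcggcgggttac
The *Tox3* window is the more GC-rich, at 85.3% against 65.7% for *Tox4* and a median of 52.7% over all 32851 promoter windows. It held 4 GC boxes and the *Tox4* window 5, and 35.7% of all windows held at least 1. The cAMP response element (TGACGTCA) bound by CREB was in neither window and in 1.79% of all windows. Its shortened form (TGACG) was found once in the *Tox4* window, not in that of *Tox3*, and in 20.8% of all windows. The NFAT core (GGAAA) was absent from both windows and was in 61.3% of all windows. These are letter matches within a short window and say nothing of whether a factor binds. For *Tox2* the table holds 5 windows, which are not printed.

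*Tox3* stood at 2 levels within set 1, one shared by both bitransgenic groups and a higher one in monotransgenic mice. Its intensity, the deposited linear probe set signal, was 40.04, 79.1 and 48.0 after doxycycline removal and 55.6, 63.0 and 49.0 on the doxycycline diet, against 239.3, 234.1 and 193.9 in monotransgenic mice. Every bitransgenic array of set 1 lay far below every monotransgenic array, and both bitransgenic groups overlapped each other. The means were 55.7 ± 20.7 after removal, 55.9 ± 7.01 on the diet and 222.4 ± 24.8 in monotransgenic mice (SD, n = 3 each). On normalized log2(value + 16), the difference from monotransgenic mice was -1.71 ± 0.26 (SE) after removal, with a 95% interval of -2.26 to -1.16, and -1.74 ± 0.26 on the diet, with an interval of -2.29 to -1.19. These are 0.305 and 0.299 of the monotransgenic level, and the 2 comparisons share the 3 monotransgenic arrays. Mice on the diet, whose transgene was held off, were as far below monotransgenic mice as mice with the transgene on.

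The comparison of removal with diet, in which both groups are bitransgenic and NgR induction and doxycycline exposure cannot be told apart, gave a *Tox3* difference of 0.03 ± 0.26, with an interval of -0.52 to 0.58 (limma, adjusted p = 0.9994). The targeted gene *Rtn4r* read 1469, 329.3 and 253.6 after removal, an average of 683.9, against an average of 90.4 on the diet. It rose by 2.30 on the log2 scale in this comparison (limma adjusted p = 0.0405). Across all 12499 genes tested, 0.032% passed in that comparison, and 0 of the 4 Tox genes did. In that comparison the differences were -0.15 ± 0.22 for *Tox*, -0.26 for *Tox2* and -0.05 for *Tox4*, each with an adjusted p of 0.9994. The removal arrays all lay below the diet arrays in 8.25% of genes.

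**Figure D1:**
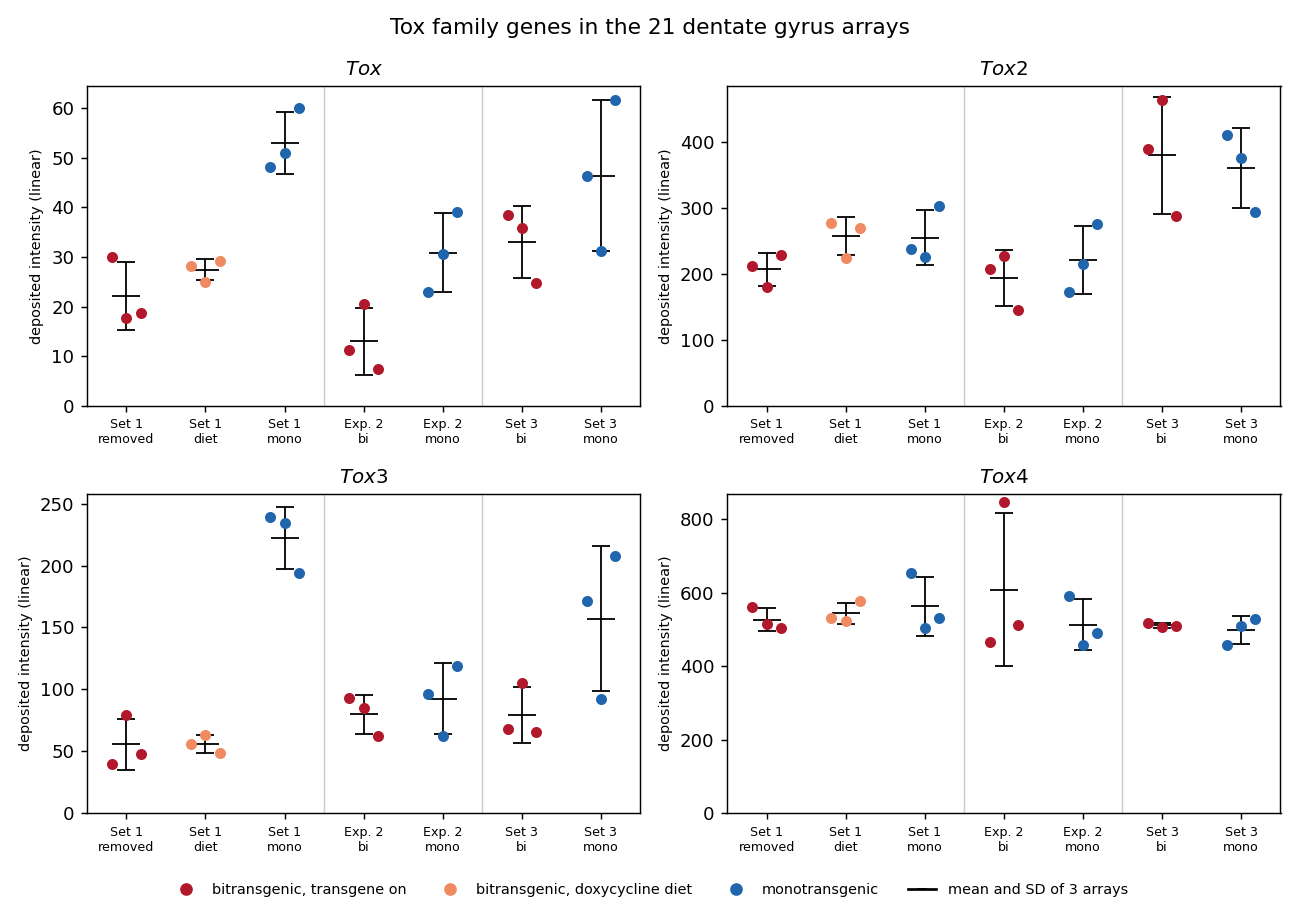
Deposited intensity of the main probe set of *Tox*, *Tox2*, *Tox3* and *Tox4* (vertical axes, linear, arbitrary units) on each of the 21 arrays, by group, with points for arrays, long bars for group means and whiskers for SD. The *Tox3* points of set 1 monotransgenic mice lie between 193.9 and 239.3, above every bitransgenic array.

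In experiment 2 *Tox3* did not separate by genotype. It measured 93.0, 84.9 and 62.6 in bitransgenic mice and 95.9, 62.4 and 119.1 in monotransgenic mice. The groups overlapped over most of their ranges, with means of 80.2 ± 15.7 in bitransgenic and 92.5 ± 28.5 in monotransgenic mice (SD, n = 3 each). The log2 difference was 0.02 ± 0.26, with an interval of -0.53 to 0.57. In set 3 *Tox3* measured 67.7, 105.4 and 65.5 in bitransgenic mice, against 171.2, 92.6 and 207.8 in monotransgenic mice. Here 2 of the 3 monotransgenic arrays lay above all bitransgenic arrays and replicate 2 fell among them. The means were 79.6 ± 22.5 in bitransgenic and 157.2 ± 58.9 in monotransgenic mice, a log2 difference of -0.78 ± 0.26 (interval -1.33 to -0.23), which was -1.09 without monotransgenic replicate 2. Set 3 holds 2 pairs of arrays with a shared title prefix, whose meaning the labels do not give, and in each pair the bitransgenic array was the lower, at 67.7 against 92.6 and at 65.5 against 207.8.

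Averaged over the 3 sets with the transgene on, *Tox3* differed from monotransgenic mice by -0.82 ± 0.15 (interval -1.14 to -0.50), or 0.565 of the monotransgenic level, and by -1.24 without experiment 2. The difference after removal in set 1 minus that in experiment 2 was -1.73 ± 0.37 (SE), set 1 minus set 3 was -0.93 ± 0.37 and experiment 2 minus set 3 was 0.80 ± 0.37. Monotransgenic mice differed among sets more than bitransgenic mice did, with intensity means of 92.5 to 222.4 in monotransgenic mice against 55.7 to 80.2 in the bitransgenic groups. Ordered by mean normalized log2 level, the groups ran from set 1 monotransgenic (7.89) through set 3 monotransgenic (7.31), experiment 2 bitransgenic (6.69), experiment 2 monotransgenic (6.67), set 3 bitransgenic (6.53) and set 1 removal (6.18) to set 1 diet (6.15). Each group overlapped the next in that order.

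**Figure D2:**
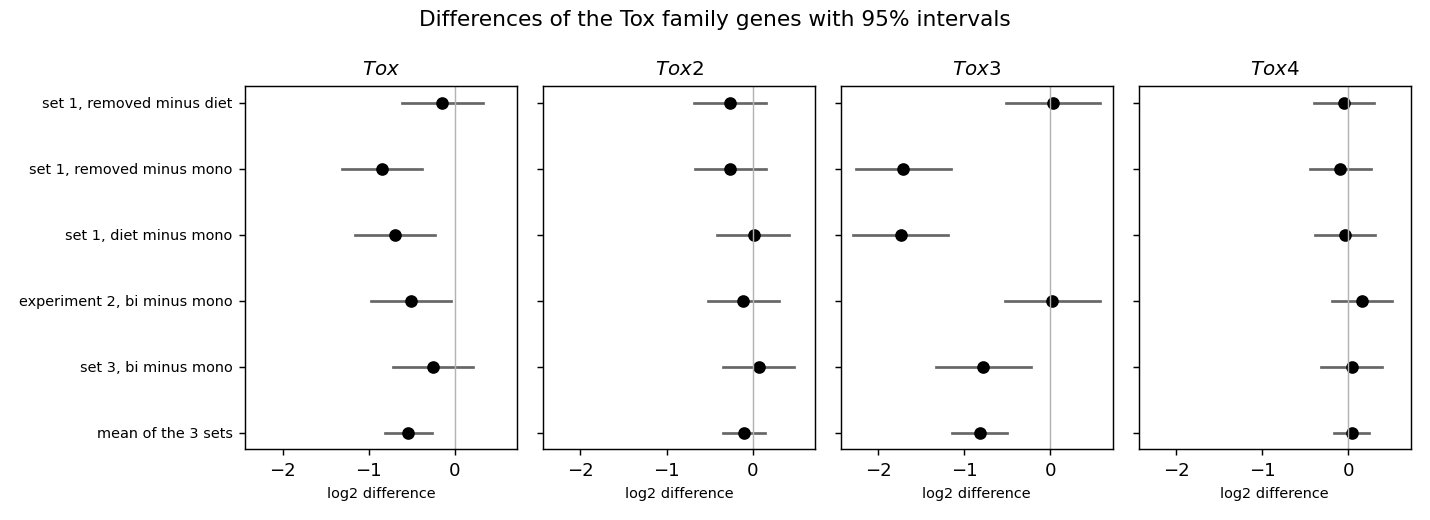
Log2 differences of the 4 genes in each within-set comparison and in the mean of the 3 sets (horizontal axis, log2 of value + 16, quantile normalized), with points for estimates and bars for 95% intervals. *Tox3* lies at -1.71 and -1.74 in the comparisons of set 1 with monotransgenic mice and at 0.02 in experiment 2.

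*Tox* itself was measured at low intensity and was lower on average in bitransgenic mice, but passed the adjusted threshold in none of the comparisons. In set 1 its main probe set read 30.0, 17.6 and 18.7 after removal and 28.1, 25.0 and 29.2 under the diet, against 48.0, 50.9 and 60.1 in monotransgenic mice. As with *Tox3*, every bitransgenic array of set 1 lay below every monotransgenic array and both bitransgenic groups overlapped. The means were 22.1 ± 6.88 after removal, 27.4 ± 2.16 on the diet and 53.0 ± 6.28 in monotransgenic mice (SD, n = 3 each). The difference from monotransgenic mice was -0.85 ± 0.22 after removal (interval -1.31 to -0.38, limma adjusted p = 0.181) and -0.70 ± 0.22 on the diet (adjusted p = 0.855). Separation of this kind was common: the removal arrays lay wholly below the monotransgenic arrays in 11.4% of all genes tested and the diet arrays in 7.58%. By adjusted p, 0.072% of genes passed after removal and 0.024% on the diet.

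In experiment 2 *Tox* read 11.2, 20.5 and 7.39 in bitransgenic mice, against 23.0, 30.5 and 39.0 in monotransgenic mice. On the deposited scale all 3 bitransgenic arrays were the lower, but the median intensities of the arrays also separated the genotypes on that scale. No share of all genes was taken there. After normalization the groups overlapped. The difference was -0.51 ± 0.22 (limma adjusted p = 0.304), where 0.096% of all genes passed. On normalized values 3.57% of genes had bitransgenic arrays wholly below monotransgenic ones. In set 3 it read 38.5, 35.7 and 24.8 in bitransgenic mice and 46.4, 31.1 and 61.6 in monotransgenic mice, which overlapped. The difference was -0.26 ± 0.22 (adjusted p = 0.9998). In that comparison 0% of genes passed by limma's adjusted p, although the unadjusted p of 524 genes lay below 0.05, and 4.72% of genes had bitransgenic arrays wholly below monotransgenic ones.

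Averaged over the 3 sets, *Tox* stood at 0.688 of the monotransgenic level, with a log2 difference of -0.54 ± 0.13 (interval -0.81 to -0.27, limma adjusted p = 0.0761), and the estimate was below 0 in 3 of 3 sets. That adjusted p missed the threshold, which 0.072% of genes passed, and it crossed it without experiment 2 monotransgenic replicate 1 (-0.59, adjusted p = 0.0352) or without set 3 monotransgenic replicate 2 (-0.60, adjusted p = 0.0145). The *Tox* differences of the sets were not shown to differ from each other: set 1 minus experiment 2 was -0.33, set 1 minus set 3 was -0.59 and experiment 2 minus set 3 was -0.25, and none passed. The other 2 *Tox* probe sets read 1.36 to 20.8 and 0.712 to 21.9 over the 21 arrays and did not pass the filter. Fitted with all probe sets, they differed from monotransgenic mice by 0.10 and 0.04 after removal and by 0.10 and -0.13 over the 3 sets, so the lower *Tox* level rests on 1 of its 3 probe sets. By mean log2 level of that probe set the groups ran from set 1 monotransgenic (6.10) through set 3 monotransgenic (5.90), set 3 bitransgenic (5.64), set 1 diet (5.40), experiment 2 monotransgenic (5.39) and set 1 removal (5.25) to experiment 2 bitransgenic (4.88), and each overlapped the next.

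**Figure D3:**
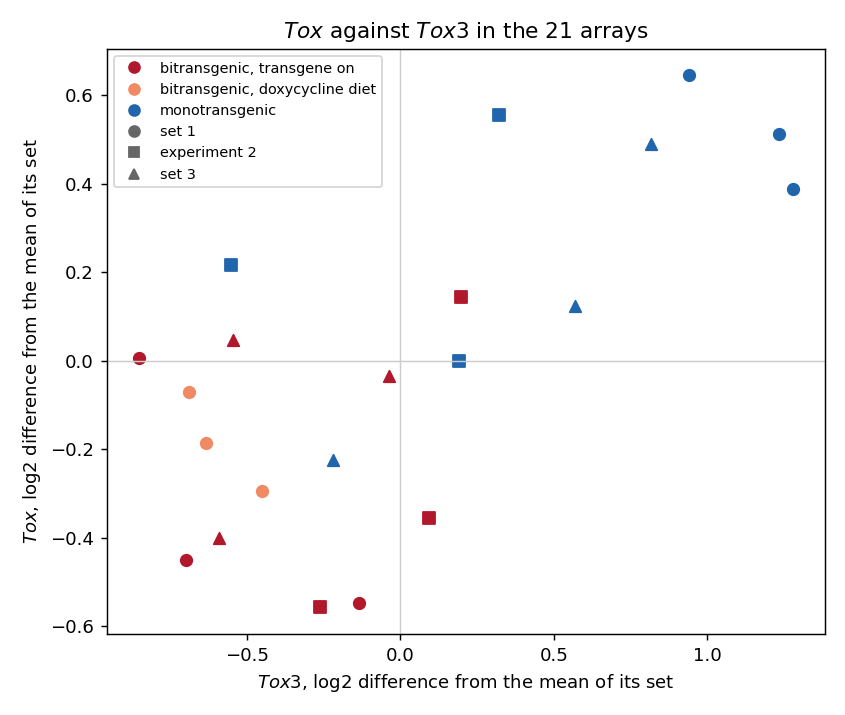
Normalized log2 level of *Tox* (vertical axis) against that of *Tox3* (horizontal axis) on the 21 arrays, each as the difference from its set's mean, with groups marked. The arrays of set 1 monotransgenic mice lie at the upper right, and the correlation over the 21 arrays is 0.69.

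*Tox* and *Tox3* varied together across arrays. With set means removed, Pearson's r was 0.69 and Spearman's rho 0.62 over 21 arrays, and r was 0.66 over 19 arrays without the 2 farthest. Within set 1 r was 0.79 over 9 arrays, within experiment 2 it was 0.30 over 6 and within set 3 it was 0.82 over 6. With group means removed, which leaves only the spread between replicates, it was 0.31. The points share group, array scaling and sample, so these are descriptions. With set means removed, the other pairs had lower values of r, at 0.46 for *Tox* with *Tox2*, 0.14 for *Tox* with *Tox4*, 0.13 for *Tox2* with *Tox3*, 0.10 for *Tox2* with *Tox4* and 0.15 for *Tox3* with *Tox4*. *Tox* with *Tox2* had 0.82 within experiment 2 over 6 arrays, and 0.49 with group means removed, both above the values of *Tox* with *Tox3*.

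*Tox2* read highest in set 3 in both genotypes and passed in none of the comparisons. In set 1 it read 211.1, 179.4 and 229.1 after removal and 277.7, 224.3 and 270.1 under the diet, against 237.3, 224.7 and 302.6 in monotransgenic mice. The 3 groups overlapped, and the removal group had the lowest mean, 206.5 ± 25.2, against 257.4 ± 28.9 on the diet and 254.8 ± 41.8 in monotransgenic mice (SD, n = 3 each). The difference from monotransgenic mice was -0.26 after removal (adjusted p = 0.862) and 0.01 on the diet. In experiment 2 the means were 193.6 ± 42.4 in bitransgenic and 220.4 ± 51.8 in monotransgenic mice, a difference of -0.11. Set 3 read highest, 379.6 ± 88.4 in bitransgenic and 359.8 ± 60.5 in monotransgenic mice, with a difference of 0.07. In the order of mean log2 levels both set 3 groups (8.56 in bitransgenic and 8.49 in monotransgenic mice) came above the rest (7.77 to 8.08) and did not overlap the next group, set 1 diet. They did overlap set 1 monotransgenic mice, whose highest array (302.6) lay above the lowest set 3 arrays (286.9 and 292.9). Averaged over the sets, *Tox2* differed by -0.10 (adjusted p = 0.774). Its second probe set, at 1.34 to 24.2, was below the filter and differed by -0.41 ± 0.19 in experiment 2 (limma adjusted p = 0.385).

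*Tox4* passed in none of the comparisons, and its group means lay close together. Its main probe set read 561.5, 514.9 and 503.5 after removal and 532.5, 523.7 and 576.4 under the diet, against 652.7, 503.9 and 531.4 in set 1 monotransgenic mice. These ranges overlapped, and the differences from monotransgenic mice were -0.09 after removal and -0.04 on the diet. In experiment 2 it read 466.0, 846.7 and 512.3 in bitransgenic mice and 590.3, 456.8 and 490.7 in monotransgenic mice. Bitransgenic replicate 2 stood apart from the other arrays, and the difference of 0.16 was -0.07 without it. Set 3 read 510.9 ± 6.02 in bitransgenic and 498.9 ± 37.7 in monotransgenic mice, a difference of 0.04, and the mean over the sets was 0.04 ± 0.10. The second *Tox4* probe set, which also passed the filter, read 106.1, 165.7 and 132.1 in experiment 2 bitransgenic mice and 161.6, 212.9 and 197.8 in monotransgenic mice. Only the highest bitransgenic array reached the monotransgenic range, and the difference of -0.38 ± 0.18 (limma adjusted p = 0.391) was opposite in sign to that of the main probe set. Over the 3 sets the second probe set differed by 0.01, an average of opposite signs, with 0.09 after removal and 0.32 ± 0.18 in set 3. Its experiment 2 minus set 3 value was -0.70 ± 0.25 (limma adjusted p = 0.650). By the main probe set the mean log2 levels of the 7 groups lay between 8.97, in set 3 monotransgenic mice, and 9.23, in experiment 2 bitransgenic mice.

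The genes whose levels most resembled those of *Tox3* over the 21 arrays, with set means removed, were *Ogn* (r = 0.907), *Col25a1* (0.898), *Efnb2* (0.893), *Penk* (0.884) and *Glis3* (0.884). *Ogn* encodes the matrix proteoglycan osteoglycin, *Col25a1* a transmembrane collagen of neurons, *Efnb2* the guidance ligand ephrin-B2, *Penk* the precursor of enkephalin peptides and *Glis3* a zinc finger transcription factor. They were picked for their likeness, so their differences are descriptions. With group means removed, r was 0.75 for *Ogn*, 0.91 for *Col25a1*, 0.82 for *Efnb2*, 0.71 for *Penk* and 0.63 for *Glis3*. The same spread between replicates had helped to pick these genes, and their values share array and scaling, so these are descriptions too.

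*Ogn* read 11.7, 26.8 and 24.1 after removal and 8.54, 26.8 and 16.5 under the diet, against 555.7, 728.3 and 635.7 in set 1 monotransgenic mice. In set 3 it read 24.1, 142.5 and 44.9 in bitransgenic mice, against 823.7, 41.2 and 652.1 in monotransgenic mice. Replicate 2 of set 3 monotransgenic mice, the low *Tox3* array, was again the low one. For *Penk* monotransgenic replicate 2 was likewise the low one of its group in set 3, with 75.9, 235.4 and 116.2 in bitransgenic mice and 614.1, 122.5 and 483.6 in monotransgenic mice. In experiment 2 *Ogn* read 54.5, 27.9 and 71.9 in bitransgenic mice and 152.6, 79.6 and 525.5 in monotransgenic mice, and monotransgenic replicate 3 was the highest array there for *Ogn*, *Penk* and *Tox3*. The log2 differences from monotransgenic mice after removal were -4.16 for *Ogn*, -1.21 for *Col25a1*, -1.60 for *Efnb2*, -2.40 for *Penk* and -1.10 for *Glis3*. On the diet they were -4.37 for *Ogn*, -0.72 for *Col25a1*, -1.27 for *Efnb2*, -2.76 for *Penk* and -1.32 for *Glis3*, against the same monotransgenic arrays. In experiment 2, where *Tox3* had 0.02, the differences were -1.58 for *Ogn*, -0.05 for *Col25a1*, 0.05 for *Efnb2*, -0.92 for *Penk* and 0.06 for *Glis3*.

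**Figure D4:**
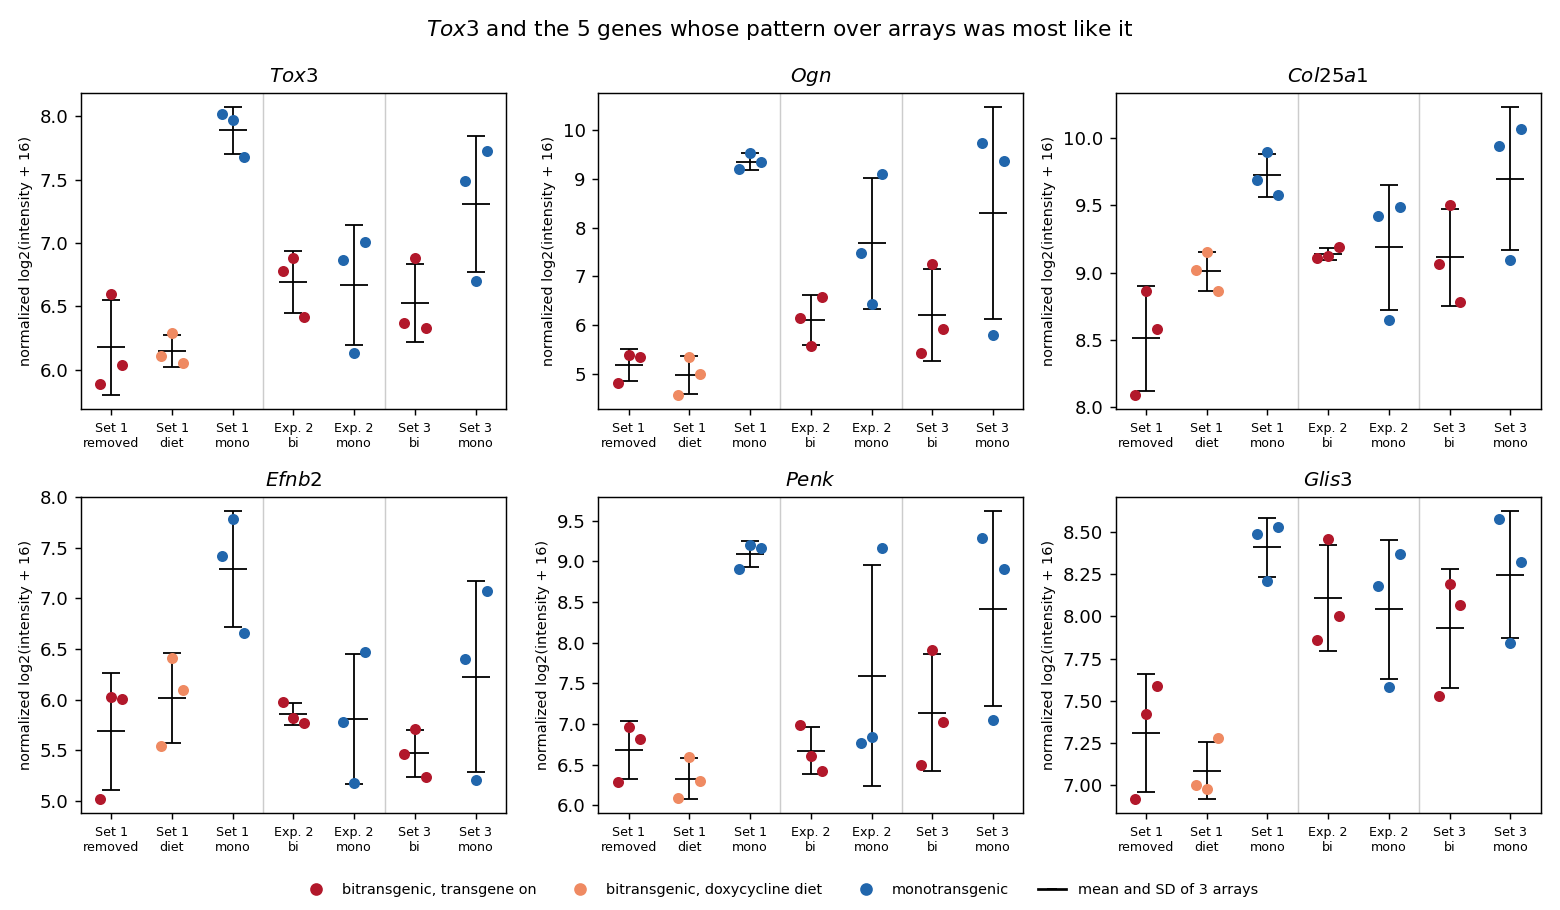
Normalized log2 level of *Tox3* and of the 5 genes most like it on each of the 21 arrays (vertical axes), by group along the horizontal axis, with bars for the mean and whiskers for SD. Set 3 monotransgenic replicate 2 lies below the other 2 arrays of its group for *Tox3* and *Ogn*.

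The genes most like *Tox* were *Tcerg1l* (r = 0.885), *Tle1* (0.813) and *Ubash3b* (0.809). *Tle1* encodes a Groucho-type corepressor and *Ubash3b* a phosphatase that restrains receptor tyrosine kinase signalling. *Tcerg1l* read 44.2, 48.8 and 34.2 after removal and 102.2, 67.7 and 52.6 under the diet, against 138.3, 129.4 and 161.9 in set 1 monotransgenic mice. The groups did not overlap with monotransgenic mice, and the removal and diet groups did not overlap each other. *Tcerg1l* was picked for its likeness, so this is a description. Of all genes, 11.4% lay wholly lower after removal and 7.58% on the diet than in monotransgenic mice, and 8.25% after removal than on the diet. For *Tox2* the most like were *Gys1* (0.779), *Gad2* (0.752) and *Ripor1* (0.73), and for *Tox4* they were *Utp6* (0.855), *Eogt* (0.851) and *Asnsd1* (0.846). *Gad2* encodes a GABA-synthesising enzyme of inhibitory neurons.

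Of the genes most like *Tox3*, *Glis3* is in the granule cell list and *Penk* in that of thalamus, neocortex and striatum. *Ogn* is one of the meningeal and fibroblast markers, whose summed level was high in set 1 monotransgenic mice, as *Tox3* was. Of 12 listed genes 5 were tested (*Ogn*, *Lum*, *Dcn*, *Col1a2* and *Islr*), and their summed intensity ran from 117.8 to 175.1 after removal and 145.6 to 173.8 on the diet, against 792.8 to 948.2 in set 1 monotransgenic mice. The sums were 133.7 to 202.6 in bitransgenic and 258.9 to 685.4 in monotransgenic mice of experiment 2, and 157.8 to 300.1 in bitransgenic and 152.5 to 1036 in monotransgenic mice of set 3. On the deposited scale these sums separated the genotypes in experiment 2, where the median intensities of the arrays separated them as well. On normalized values 2 of the 5 genes were higher and 3 lower there (median -0.06). Most of each high sum was *Ogn*. The defining fibroblast genes *Dcn* and *Col1a2* stayed at 2.14 to 32.0 and 3.31 to 29.5 over all arrays. *Ogn* and *Lum* passed the threshold as lower after removal than in monotransgenic mice (*Lum* -1.48, limma adjusted p = 0.0468). On the diet and over the 3 sets *Ogn* alone of the list passed. Of all genes, 0.072% passed after removal, 0.024% on the diet and 0.072% over the 3 sets. *Ogn* was picked for its likeness to *Tox3*, so its passing is a description. *Lum* also read lower on the diet, at 29.0 ± 6.81 against 89.5 ± 24.7 in set 1 monotransgenic mice (mean and SD). The list's medians were -0.34 after removal, -0.38 on the diet and -0.11 over the sets. The part of these cells in the *Tox3* values was not tested.

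The granule cell genes *Prox1* (318.4 to 950.5), *Calb1* (3755 to 7492) and *Dsp* (2804 to 6004) were high on all 21 arrays. Others of that list were lower on some arrays, such as *Pdzd2* (70.7 to 866.4) and *Trpc6* (82.3 to 426.2). Genes of other cells could be as bright, such as *Gad1* of inhibitory neurons (2896 to 5402), so these levels alone do not show how pure the tissue was. Of 18 granule cell genes 17 were tested and none passed in any comparison, yet they leaned low in set 1, with 6 higher and 11 lower after removal (median -0.29, against -0.01 over all genes) and a median of -0.27 on the diet. After removal 7 of the 17 had an unadjusted p under 0.05, a larger share than the 7.86% of all genes, a difference that was not tested. Among these 7 was *Glis3*, which was picked for its likeness to *Tox3*. They were also low in set 3, with 4 higher and 13 lower (median -0.19), and over the 3 sets, with 5 higher and 12 lower (median -0.19), while their median in experiment 2 was 0. Their summed intensity was 32580 to 38140 after removal and 33520 to 34560 on the diet, against 37730 to 42700 in monotransgenic mice. The other marker lists had no member past the threshold in any of the 6 comparisons. Over the 3 sets their medians were 0.03 for CA3, CA2 and mossy cells, -0.06 for CA1, -0.09 for inhibitory neurons, -0.17 for thalamus, neocortex and striatum, 0.01 for neurogenesis, -0.07 for astrocytes, -0.19 for oligodendrocytes, -0.01 for microglia, 0.13 for choroid plexus, -0.05 for endothelium and -0.12 for sex-linked genes, against 0.01 over all genes.

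Experiment 2, where *Tox3* did not separate, differed from the other sets as a whole. *Xist* read 2361 to 4750 on its 6 arrays and at most 33.7 elsewhere, and the Y-linked *Eif2s3y* read 0.316 to 9.84 there and 394.6 to 680.3 elsewhere. Both genotypes of experiment 2 shared these levels. The actin 3′ to 5′ log2 ratio, which rises with RNA degradation, was 5.10 to 6.45 in its bitransgenic and 4.84 to 5.97 in its monotransgenic arrays, against 4.63 to 5.12 in set 1 and 4.17 to 4.63 in set 3. The same ratio for *Gapdh* was 4.11 to 4.74 in experiment 2, 3.95 to 4.40 in set 1 and 4.52 to 4.80 in set 3, so by that measure experiment 2 was not the highest. The median deposited intensity of an array was 21.1 to 23.1 in experiment 2 bitransgenic and 25.6 to 29.0 in monotransgenic mice, a separation of the genotypes before normalization whose part in the results was not tested. Without the 2 arrays of highest actin ratio, 1 of each genotype, the *Tox3* difference in experiment 2 was 0.03. Over all 12 alternative settings that difference ran from -0.29 to 0.03, and without 1 array from -0.25 to 0.19. Sex and doxycycline history differ together between experiment 2 and set 1 and cannot be told apart.

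The partners and regulators of the TOX proteins did not pass limma's adjusted threshold in any comparison. Over the 3 sets, unadjusted p-values under 0.05 were had by 3 CREB, coactivator and CITED genes, 4 calcineurin, NFAT and NR4A genes, 0 PTW/PP1 partners and 3 other HMG box genes, where 11.8% of all genes had one. Among the CREB, coactivator and CITED genes 13 of 16 were tested, and 8 were higher and 5 lower than in monotransgenic mice after removal (median 0.08). *Cited2*, a CBP-binding regulator of transcription, had -1.13 there (limma adjusted p = 0.119) and -0.74 over the 3 sets (adjusted p = 0.0622). *Camk4*, the calcium-dependent kinase that acts on CREB, had 1.16 after removal (adjusted p = 0.494) and 1.47 in set 3. All 15 calcineurin, NFAT and NR4A genes were tested, 6 higher and 9 lower after removal (median -0.10) and 6 higher and 9 lower over the 3 sets (median -0.05). *Nfatc4* had -0.46 and *Nfatc2* 0.30 after removal, and *Nfatc2* had 0.92 on the diet (adjusted p = 0.119).

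Of the PTW/PP1 partners of *Tox4*, 4 of 5 were tested, with 0 higher and 4 lower after removal (median -0.06) and 2 higher and 2 lower over the 3 sets (median 0). In experiment 2 the catalytic subunits *Ppp1ca* and *Ppp1cb* had -0.69 and 0.35. Among 36 other HMG box genes 26 were tested, with 12 higher and 14 lower both after removal (median -0.06) and over the 3 sets (median -0.04), and with 8 higher and 18 lower in experiment 2 (median -0.23). *Sox4*, a factor of immature neurons, had 0.92 after removal (adjusted p = 0.200), and its relative *Sox11* had -0.96 in set 3.

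Of the 20 tested genes nearest to *Tox3* on its chromosome, none passed the threshold in any comparison. Their differences from monotransgenic mice ran from -0.47 to 0.39 after removal (median -0.045, 12 lower and 8 higher, lowest unadjusted p = 0.102) and from -0.39 to 0.45 on the diet (median 0.025). The nearest 3 on one side were *Nkd1*, *Cyld* and *Sall1*, at 0.39, -0.23 and -0.12 after removal. On the other side *Chd9*, *Rbl2* and *Aktip* stood at 0.09, -0.01 and -0.29. The *Tox3* value of -1.71 lay outside the range of its neighbours, but that value had chosen the family.

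**Figure D5:**
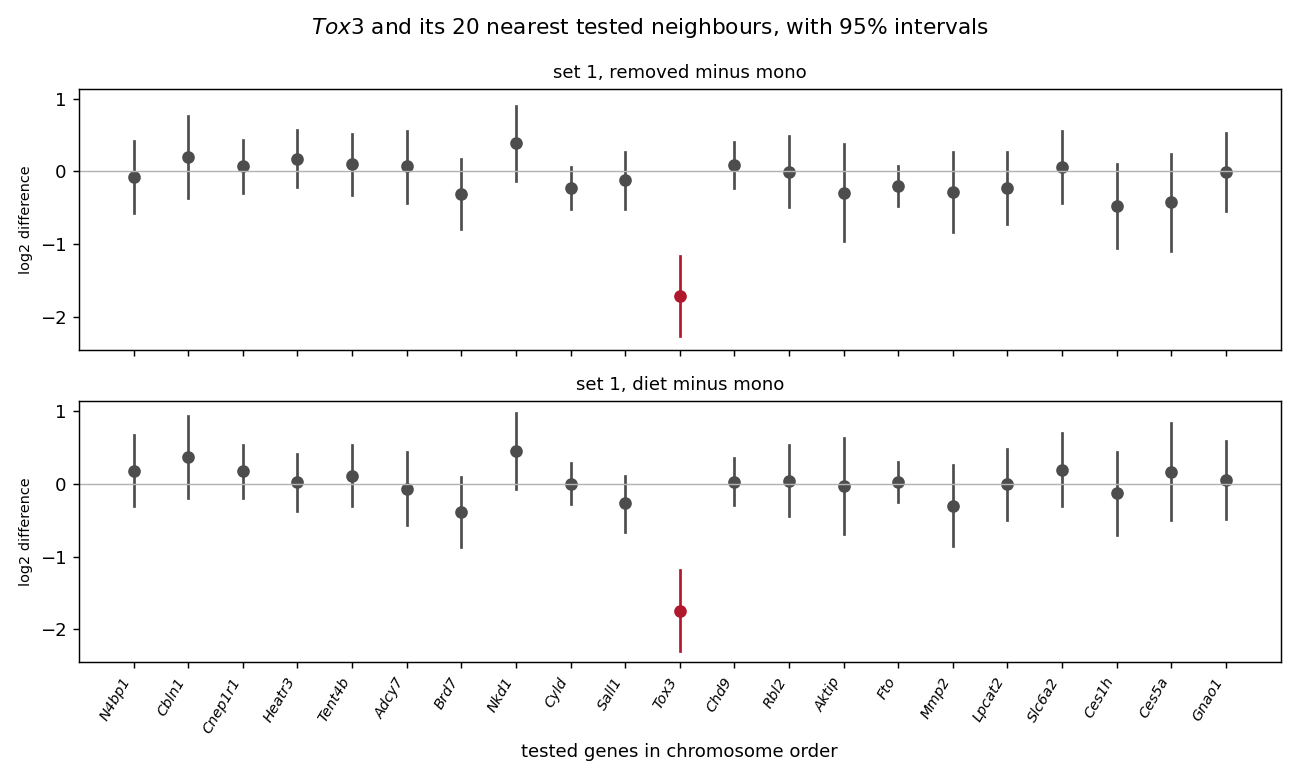
Log2 difference from set 1 monotransgenic mice of *Tox3* and the 20 tested genes nearest to it (vertical axis), after doxycycline removal and on the diet, in chromosome order (horizontal axis), with points for estimates and bars for 95% intervals. The neighbours lie between -0.47 and 0.45, above the *Tox3* values of -1.71 and -1.74.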

How the data were processed

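The 21 dentate gyrus arrays fell into 7 groups of 3 by their labels. The authors deposited a linear intensity per probe set, scaled so that each array's mean without the lowest and highest 2% was 150. The software behind them is not given in the sources used. The number of arrays limits the precision, as does dim signal, for which no detection calls were used. No 2 arrays held the same values.

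The members, lists and rules were chosen with earlier results of these data known. Intensities were transformed as log2(value + 16), so fold changes of dim probe sets are understated, and quantile normalized without 64 controls. The upper 60% of probe sets by mean (27022, at least 4.90) were kept. The brightest probe set on average stood for a gene, giving 12499 genes. A limma fit (limma 3.58.1 and R 4.3.3, tables read by the data.table package 1.17.8) had 1 coefficient per group over 21 arrays, a variance trend and 14 residual degrees of freedom. Tests were two-sided with Benjamini-Hochberg adjustment over all genes and a threshold of 0.05. The other probe sets were fitted with all probe sets unfiltered. The fit was tested on simulated data. Figures were drawn with matplotlib 3.10.9 in Python 3.11.15.

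Named genes were the members, *Rtn4r*, the 5 genes of highest Pearson r with *Tox3* (3 for each other member), 10 tested neighbours on each side of *Tox3* (the 3 nearest named) and the members of lowest p in each list used, so that lists of partners, other HMG box genes and cell type markers are summarised by counts and medians. Gene names came from the platform annotation, where 34945 probe sets had 1 symbol, 932 several and 9160 none. Locations and promoters came from RefSeq. Alternatives changed the pseudocount, filter, normalization, probe set, spread and arrays used.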

Additional observations from a re-analysis of the deposited data

How the results depend on the processing

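Of 755 alternative values of the 4 genes, 714 counted as unchanged, 32 moved further and 9 crossed to passing. Unchanged values lay within 1 SD between replicates of the main value. For *Tox*, *Tox2*, *Tox4* and *Tox3* between both bitransgenic groups they also kept their side of the threshold. The other *Tox3* values are descriptions, and whether they kept their side was not part of this count. The sign changed in 34, all of them for values that passed neither in the main nor in the alternative fit. The *Tox* mean over sets (-0.54) passed on the deposited scale (-0.63, adjusted p = 0.0386), with 75th percentile centring (-0.57, 0.0466), with array weights (-0.68, 0.00172) and without the 2 arrays of highest actin ratio (-0.65, 0.0198). It ranged from -0.61 to -0.48 without 1 array (adjusted p 0.0145 to 0.193). The *Tox* difference after removal passed with array weights (-0.85, 0.0164) and with only set 1 fitted (-0.85, 0.0325), and that of experiment 2 with array weights (-0.91, 0.0216). A pseudocount of 1 gave *Tox* -1.23 after removal, -0.98 on the diet, -0.96 in experiment 2, -0.85 over the sets, -0.88 for set 1 minus set 3 and -0.60 for experiment 2 minus set 3. A pseudocount of 64 gave -0.43, -0.37, -0.21 and -0.26 for the first 4 of these and -0.29 for set 1 minus set 3, and gave *Tox3* -1.24 after removal, -1.26 on the diet and -1.24 for set 1 minus experiment 2. *Tox3* over the sets was -1.24 without experiment 2. With array weights *Tox* had 0.06 for set 1 minus experiment 2 and -0.64 for experiment 2 minus set 3, and *Tox2* had -0.53 in experiment 2, 0.29 and -0.74. Without the 2 arrays of highest actin ratio *Tox* had -0.85 in experiment 2 (adjusted p = 0.0575), -0.01 and -0.58, and *Tox2* had -0.37, 0.12 and -0.44, in the same order. The mean of its probe sets gave *Tox4* -0.11, 0.11 and -0.29. Without 1 array *Tox4* ranged from -0.07 to 0.30 in experiment 2, -0.39 to -0.01 for set 1 minus experiment 2 and -0.11 to 0.26 for experiment 2 minus set 3.

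The genes called over all genes (main counts 4, 9, 3, 12, 0 and 9 in the order removal minus diet, removal and diet minus monotransgenic, experiment 2, set 3 and mean) ran over these settings 0 to 85, 4 to 330, 0 to 41, 0 to 890, 0 to 39 and 3 to 1374, and without 1 array 0 to 4, 0 to 6, 0 to 0, 5 to 658, 0 to 73 and 3 to 316. The upper 40% filter leaves out *Tox*. Apart from shrinkage by the larger pseudocount, the cause was not tested. No paired analysis was possible because replicate numbers were given in accession order. In set 3, 2 pairs of arrays share a title prefix of unknown meaning, each pair with 1 array of each genotype. The prefix as a factor was thus bound to leave the estimates unchanged, and says nothing of their stability. They were *Tox* -0.26, *Tox2* 0.07, *Tox3* -0.78 and *Tox4* 0.04. Dim signal limits *Tox* and the probe sets below the filter.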
